A study of Saccharomyces cerevisiae with 12 samples.

Results

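Peaks on the mitochondrial DNA were examined in ATAC-seq libraries of Saccharomyces cerevisiae, an assay in which a transposase, Tn5, inserts adapters into DNA that it can reach. Members were all peaks that the authors' lists place on the mitochondrial chromosome, chrM of the sacCer3 build. There were 210 of them among 13746 peaks, and peaks sharing at least 1 base between libraries were merged into 24 regions, of 2189 regions in the whole series. The regions are numbered R1 to R24 in order along the molecule. Each of 4 groups held 3 libraries of strain BY4741, a haploid laboratory strain. The first group carried synHPRT1R, the reversed sequence of a synthetic human HPRT1 locus, on a yeast artificial chromosome (YAC), and the second carried synHPRT1R integrated on chromosome XI. The other groups carried synHPRT1, the unreversed locus, in the same formats. YAC strains grew in SC-Leu, a synthetic medium without leucine, and integrated strains in YPD, a rich medium, so format and medium cannot be told apart. A BY4741 strain with no construct was not analysed here, and the labels do not state the origin of the replicates. The spread that p-values measure is therefore that between libraries, and may be technical.

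Yeast mitochondrial DNA is a small, AT-rich molecule kept in many copies per cell, so read depth on it need not match that of the nucleus. It is packed into nucleoids by the HMG-box protein Abf2 and carries no histones. It encodes core subunits of the respiratory chain and ATP synthase, both ribosomal RNAs, 1 ribosomal protein, the RNA part of RNase P and a set of tRNAs, and its COX1, COB and 21S rRNA genes are split by introns in the reference strain.

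The regions differed in how many libraries held them. Of the 24, 13 held a peak in all 12 libraries, 4 in 6 to 11, 5 in 2 to 5 and 2 in a single library. Built from summits within 200 bp of each other instead, 8 of 29 regions were in all 12. In lists limited to a fold enrichment of 3 or more, 6 of 16 regions were in all 12. In lists limited to a -log10 q of 10 or more, 3 of 18 were. In the full lists, regions found in every library made up 54.2% of the mitochondrial regions, against 21.1% of the 2047 nuclear regions. Regions found in 1 library made up 8.33% against 24.9%. This comparison with nuclear regions was not made at the stricter limits. Within a library, 68.4% to 86.7% of mitochondrial regions were shared by all 12, against 34.8% to 50.2% of nuclear regions. Each library held 15 to 19 mitochondrial peaks. The regions were 159 to 822 bp wide, with a median of 328 bp, and together covered 10.4% of the molecule.

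Peaks lay almost wholly inside annotated genes. Gene spans cover 39.4% of the mitochondrial DNA in RefSeq's gene table for R64, and 96.8% to 100% of the peak bases of a library fell within them. Of 210 summits, 206 were inside a gene span. Of the 46 mitochondrial genes in the table, 18 were overlapped by a peak in at least 1 library, 17 in at least 6 libraries and 16 in all 12. By role, all 3 complex IV genes (COX1, COX2, COX3), the complex III gene COB, 2 of 3 ATP synthase genes (ATP6 and OLI1) and 2 of 3 translation genes (both rRNAs) held a peak in every library. The ATP synthase gene ATP8 and the ribosomal protein gene VAR1 held none in any library. Neither did RPM1, the RNase P RNA gene, nor Q0255, an open reading frame next to COX2. Of 24 tRNA genes, 1 was overlapped, in 2 libraries. Of the 10 intron-encoded reading frames, 9 were overlapped, but most of their spans in the table begin at the start of COX1 or COB, so these are largely the same peaks. The table gives gene spans and not exons, so whether a peak within COX1, COB or 21S rRNA lies in an exon or an intron was not resolved.

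**Figure D1:**
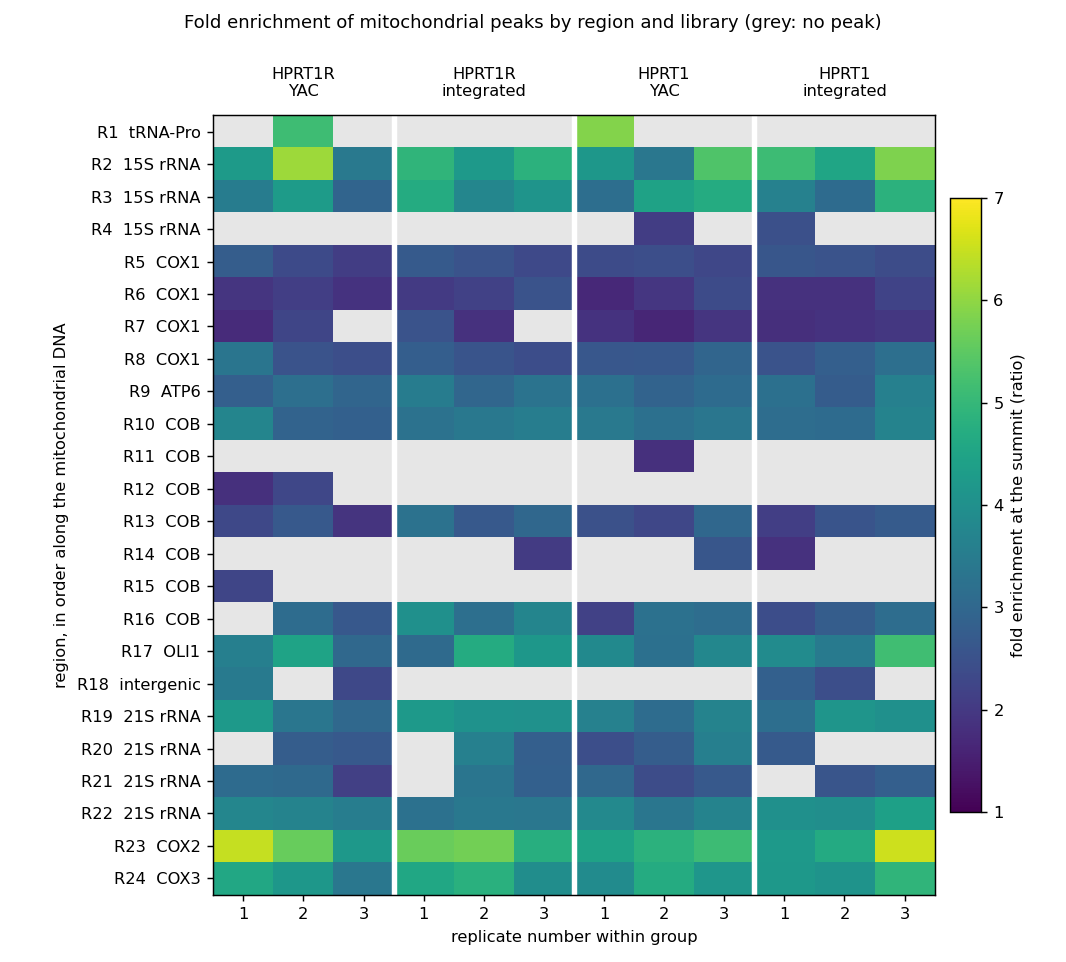
Fold enrichment at the summit (colour, ratio to the local background, the authors' value) for the 24 mitochondrial regions (rows, in order along the molecule) in 12 libraries (columns, by group and replicate number). Grey cells hold no peak. COX2, COX3 and the first 15S rRNA region are bright in all groups, and the COX1 regions are dark although each library called most of them.

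The complex IV gene COX2, which encodes subunit 2 of cytochrome c oxidase, carried the peak with the best mean rank by fold enrichment, 1.42. Its region, R23 (chrM:73747-74488), had the highest fold enrichment of all mitochondrial peaks in 7 of 12 libraries. Fold enrichment was 6.46, 5.61 and 4.19 in HPRT1R YAC libraries and 5.64, 5.72 and 4.76 in HPRT1R integrated libraries. It was 4.46, 4.87 and 5.12 in HPRT1 YAC libraries and 4.24, 4.67 and 6.54 in HPRT1 integrated libraries. The 4 groups overlapped, and each group's lowest library lay under 5. COX3, encoding subunit 3 of the same enzyme, was covered by R24 (chrM:79219-80040). Its fold enrichment averaged 4.05 ± 0.622 in HPRT1R YAC and 4.45 ± 0.448 in HPRT1R integrated libraries. In HPRT1 libraries it averaged 4.25 ± 0.415 on the YAC and 4.41 ± 0.461 when integrated (SD, n = 3 each).

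COX1, which encodes subunit 1, held 3 or 4 separate peaks per library over a span of 12884 bp. They fell in R5 (chrM:13913-14435), R6 (16382-16914), R7 (20583-20960) and R8 (26158-26483). R5 lies within the span of AI1, an intron-encoded reading frame, and R6 begins 60 bp past its end. R8 began 903 bp past the end of AI5_BETA, the last intron-encoded frame of the gene. R5, R6 and R8 were found in all 12 libraries. R7 was found in 10, and was missing in HPRT1R YAC replicate 3 and HPRT1R integrated replicate 3. R6 or R7 had the lowest fold enrichment of the mitochondrial peaks of its library in 11 of 12 libraries. R6 had 1.92, 2.12 and 1.89 in HPRT1R YAC and 2.02, 2.17 and 2.53 in HPRT1R integrated libraries. In HPRT1 libraries R6 had 1.70, 1.94 and 2.37 on the YAC and 1.87, 1.86 and 2.22 when integrated. The highest of these values was 2.53, in HPRT1R integrated replicate 3, and the groups overlapped. Median fold enrichment was 2.42 at R5 (range 2.08 to 2.78), 1.89 at R7 (1.64 to 2.54) and 2.63 at R8 (2.41 to 3.34).

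COB encodes cytochrome b of complex III, and 7 regions fell in its span of 7108 bp. R10 (chrM:36583-36951), near its lower end, and R13 (40797-41069) were found in all 12 libraries. R16 (43303-43632), past the last reading frame BI4 and near the upper end of COB, was found in 11. It was missing in HPRT1R YAC replicate 1. Median fold enrichment was 3.31 at R10 (range 2.83 to 3.72) and 3.14 at R16 (2.16 to 4.01). R13 had 2.31, 2.67 and 1.901 in HPRT1R YAC and 3.27, 2.67 and 3.01 in HPRT1R integrated libraries. It had 2.50, 2.28 and 3.01 in HPRT1 YAC and 2.12, 2.56 and 2.73 in HPRT1 integrated libraries. In R13 the lowest library was HPRT1R YAC replicate 3 and the groups overlapped. The upper edge of R10 fell on base 36951 in 11 of 12 libraries, and its range over libraries was 9 bp. The other 4 regions of COB were weaker and sporadic. R11 (37995-38154) was called in HPRT1 YAC replicate 2 and R15 (41845-42003) in HPRT1R YAC replicate 1. R12 (38202-38478) was called in 2 HPRT1R YAC libraries. R14 (41563-41771) was called in HPRT1R integrated replicate 3, HPRT1 YAC replicate 3 and HPRT1 integrated replicate 1. Their fold enrichments ran from 1.83 at R12 to 2.61 at R14.

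Among ATP synthase genes, OLI1, which encodes subunit 9 of the membrane ring, was covered by R17 (chrM:46741-46954) and ATP6, which encodes subunit 6, by R9 (28711-29258). OLI1 had fold enrichments of 3.59, 4.48 and 3.04 in HPRT1R YAC and 3.07, 4.69 and 4.17 in HPRT1R integrated libraries. It had 3.84, 3.22 and 3.78 in HPRT1 YAC and 3.89, 3.48 and 5.16 in HPRT1 integrated libraries. The groups overlapped, and the highest value was that of HPRT1 integrated replicate 3. ATP6 stayed within 2.74 to 3.61 over all 12 libraries, with a median of 3.15.

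The rRNA genes carried 7 regions. Over 15S rRNA, the small-subunit rRNA, R2 (chrM:6561-6951) and R3 (7163-7711) were found in all libraries, and R4 (7955-8163) in HPRT1 YAC replicate 2 and HPRT1 integrated replicate 1. R2 had the highest fold enrichment of the mitochondrial peaks of its library in 4 of 12 libraries. Its values were 4.27, 6.11 and 3.42 in HPRT1R YAC and 4.92, 4.22 and 4.86 in HPRT1R integrated libraries. They were 4.18, 3.38 and 5.35 in HPRT1 YAC and 5.12, 4.52 and 5.83 in HPRT1 integrated libraries. HPRT1R YAC held both the highest of these values and 1 of the lowest, and the groups overlapped. R3 had a median of 3.93 (range 2.94 to 4.85). Over 21S rRNA, the large-subunit rRNA, R19 (59559-60046) and R22 (61836-62105) were found in all libraries, R20 (60463-60912) in 8 and R21 (61105-61337) in 10. R21 lies in the span of SCEI, the homing endonuclease frame of the 21S rRNA intron. R22 had the most closely placed summits of the regions found in 12 libraries, within 16 bp of each other, and its lower edge fell on base 61871 in 8 libraries. Fold enrichment at R22 was 3.76, 3.69 and 3.55 in HPRT1R YAC and 3.23, 3.41 and 3.38 in HPRT1R integrated libraries. It was 3.82, 3.36 and 3.69 in HPRT1 YAC and 4.02, 3.98 and 4.41 in HPRT1 integrated libraries. The highest of these 12 values was 4.41 and the lowest 3.23. HPRT1 integrated libraries, at 3.98 and above, lay over the other groups, which reached 3.82. HPRT1R integrated libraries, at most 3.41, lay under HPRT1R YAC libraries, at least 3.55. The order of formats at R22 thus differed between constructs. How many of the 13 regions found in all libraries separate in this way was not counted. No test was run on these values, and nothing is read from this order. The median was 3.85 at R19 (range 3.03 to 4.24), 2.77 at R20 (2.43 to 3.62) and 2.82 at R21 (2.14 to 3.32).

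Peaks also followed the extent of the short genes COX2, COX3 and OLI1. COX3 peaks began 6 to 27 bp inside the lower-coordinate end of the gene and ended between 47 bp before and 18 bp past its upper end. They covered 92.5% to 99.3% of the gene. COX2 peaks covered 64.2% to 96.7% of the gene, and their upper edge lay 25 to 35 bp before the gene's upper end in all 12 libraries. HPRT1R YAC replicate 3 had the shortest COX2 peak, which began 238 bp into the gene. OLI1 peaks began 18 to 37 bp into the gene and covered 70.1% to 90.04% of it. ATP6 differed: its peaks began 224 to 342 bp into the gene, and covered 47.2% to 70.3% of it. Summits were not at a fixed place in every gene. The 12 summits lay within 97 bp of each other in COX2 and were spread over 615 bp in COX3.

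**Figure D2:**
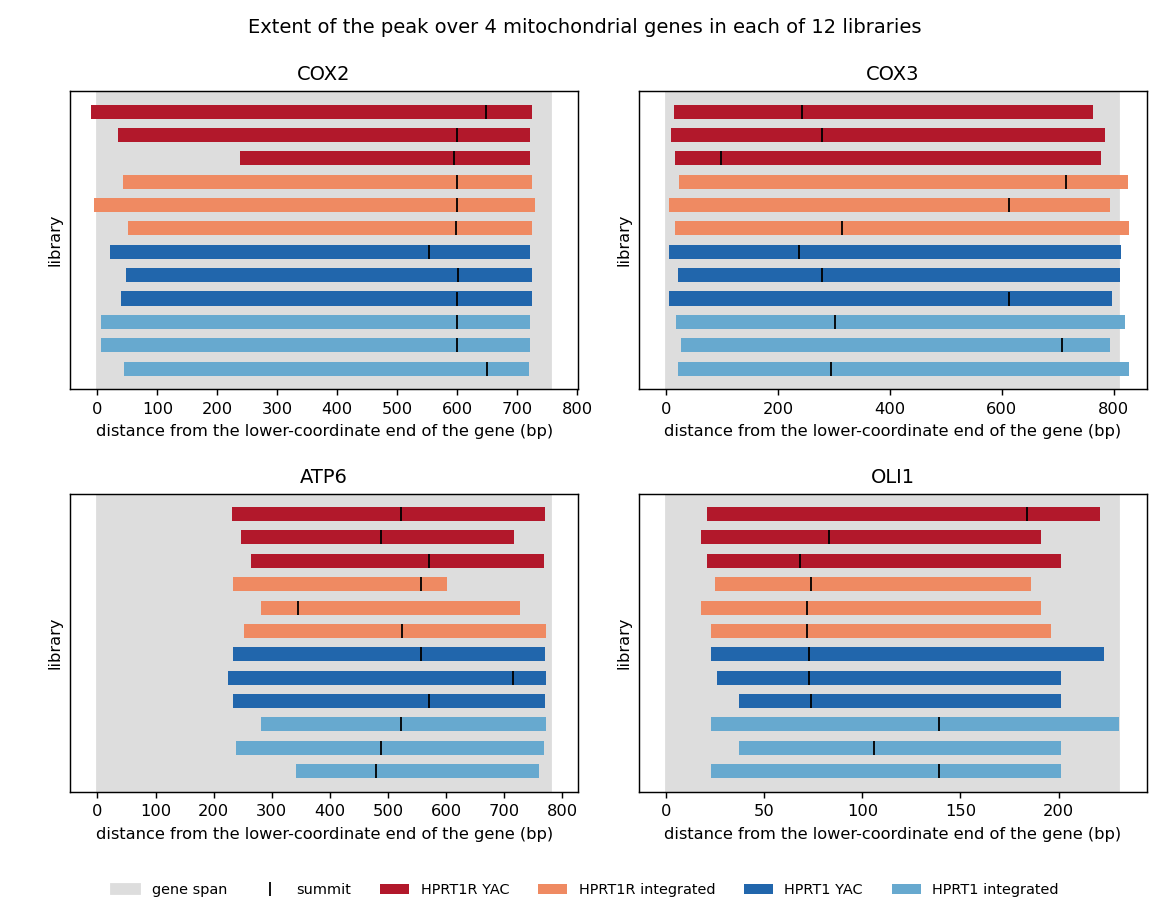
Each bar is the peak called in 1 library over COX2, COX3, ATP6 or OLI1 (horizontal axis, distance in bp from the lower-coordinate end of the gene), with a black tick at the summit and the gene span in grey. Group colours overlap in every panel: COX3 bars fill nearly the whole gene, ATP6 bars begin 224 bp or more into it, and the shortest COX2 bar is that of HPRT1R YAC replicate 3.

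One region lay outside all genes. R18 (chrM:53655-53869) lies 3558 bp past VAR1 and 4140 bp before 21S rRNA. It was called in HPRT1R YAC replicates 1 and 3 and in HPRT1 integrated replicates 1 and 2, with fold enrichments of 3.46, 2.30, 2.85 and 2.45. It held the 4 summits outside gene spans. The single tRNA region, R1 (718-935), covers the proline tRNA gene tP(UGG)Q. It had a fold enrichment of 5.13 in HPRT1R YAC replicate 2, with 34 reads at the summit, and 5.89 in HPRT1 YAC replicate 1, with 47 reads. The longest stretch with no peak in any library was 11.6 kb, from 62106 to 73746 between 21S rRNA and COX2, and it contains 16 tRNA genes. The next, 7.32 kb from 29259 to 36582 between ATP6 and COB, contains 1 tRNA gene. A stretch of 6.70 kb from 46955 to 53654 contains VAR1 and 1 tRNA gene. The sources used here do not give the treatment of reads that match several places. The part of read mapping or base composition in these stretches was not tested.

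Mitochondrial DNA held more peaks per kb than the nuclear chromosomes in all 12 libraries. Density was 0.204 ± 0.0145 mitochondrial peaks per kb, against 0.0901 ± 0.0108 nuclear peaks per kb (SD, n = 12 each). The log2 ratio, with 0.5 peak added to each mitochondrial count, was 1.23 or 2.34-fold (p = 0.000488, the smallest possible here, exact two-sided sign-flip permutation test with libraries as units). Peaks covered 7.197% ± 0.635 of mitochondrial bases, against 3.35% ± 0.447 of nuclear bases (n = 12 each, higher in 12 of 12 libraries, p = 0.000488, same exact test). Peak width did not pass the test. The median was 303 ± 34.2 bp on mitochondrial DNA, against 299 ± 11.1 bp on the nuclear chromosomes, and the mitochondrial median was the wider one in 6 of 12 libraries (log2 difference 0.01 ± 0.16, p = 0.797, exact sign-flip permutation test, n = 12). Among peaks of -log10 q 10 or more, mitochondrial peaks were narrower, by log2 -0.52 (p = 0.000488, same exact test).

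Mitochondrial peaks ranked lower by fold enrichment than the other peaks of their library. The median mitochondrial peak lay at percentile 34.4 ± 9.46 by fold enrichment among its library's own peaks, and below 50 in 12 of 12 libraries (p = 0.000488, exact sign-flip permutation test). With lists cut to fold enrichments of 3 and above, it lay -2.45 points from 50 (p = 0.476, exact sign-flip permutation test). With lists cut to a -log10 q of 10 and above, it lay -36.1 points from 50 (p = 0.000488, same exact test). The median -log10 q was higher at mitochondrial peaks, 11.4 ± 2.43, against 5.79 ± 0.737 at nuclear peaks (SD, n = 12 each). The deposited fold enrichment and p-value fix the read pileup at a summit and the local background under the peak caller's model. Median summit pileups were 45 to 84 reads on mitochondrial DNA, against 20 to 26 reads at nuclear peaks. The local background was 19.9 ± 5.55 reads at mitochondrial peaks, against 5.79 ± 0.570 at nuclear peaks (n = 12 each). The log2 ratio was 1.73 or 3.33-fold, higher in 12 of 12 libraries (p = 0.000488, exact sign-flip permutation test). In every library the nuclear median was nearly equal to the lowest nuclear background, so this ratio is to that lowest value. No mitochondrial peak lay under that value either, so the ratio could not favour nuclear peaks. Its direction and p-value were thus fixed in advance, and only its size is descriptive. A background more than 1% above the lowest value was found at 99.5% of mitochondrial and 14.0% of nuclear peaks. Most nuclear fold enrichments are thus ratios to the lowest value, and most mitochondrial ones are ratios to a higher background. The percentile ranks both kinds together. With 5 such comparisons, the adjusted p was 0.00061 for density, covered share, percentile and background, and 0.797 for width (Benjamini-Hochberg). The adjusted p for background carries no more weight than its fixed p-value.

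Background differed along the molecule in the same way in every library. It is given here relative to the library-wide level, the lowest background at a nuclear peak of that library, which was 4.97 to 6.93 reads. R6 in COX1 had the highest background of all mitochondrial peaks in 12 of 12 libraries. Its median was 6.75 times the library-wide level, against 1.77 at R2 and 1.70 at R3 in 15S rRNA. Values were intermediate at COX2 (2.59), COX3 (2.77), ATP6 (2.76), R10 of COB (3.21) and R22 of 21S rRNA (3.65). Over the 13 regions found in all libraries the medians of background spanned 3.97-fold, those of summit pileup 2.08-fold and those of fold enrichment 2.52-fold. COX1 R6, with a median pileup of 79.0 reads, and COX2, with 82.5, were thus about equally deep at the summit and far apart in fold enrichment, at 1.98 and 4.99. Over the same 13 regions, Spearman's rho of fold enrichment between 2 libraries had a median of 0.865 for 12 pairs within groups and 0.885 for 54 pairs between groups. For background the medians were 0.995 and 0.984. These are descriptions across regions of 1 molecule, which share depth and neighbouring reads and are not independent.

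**Figure D3:**
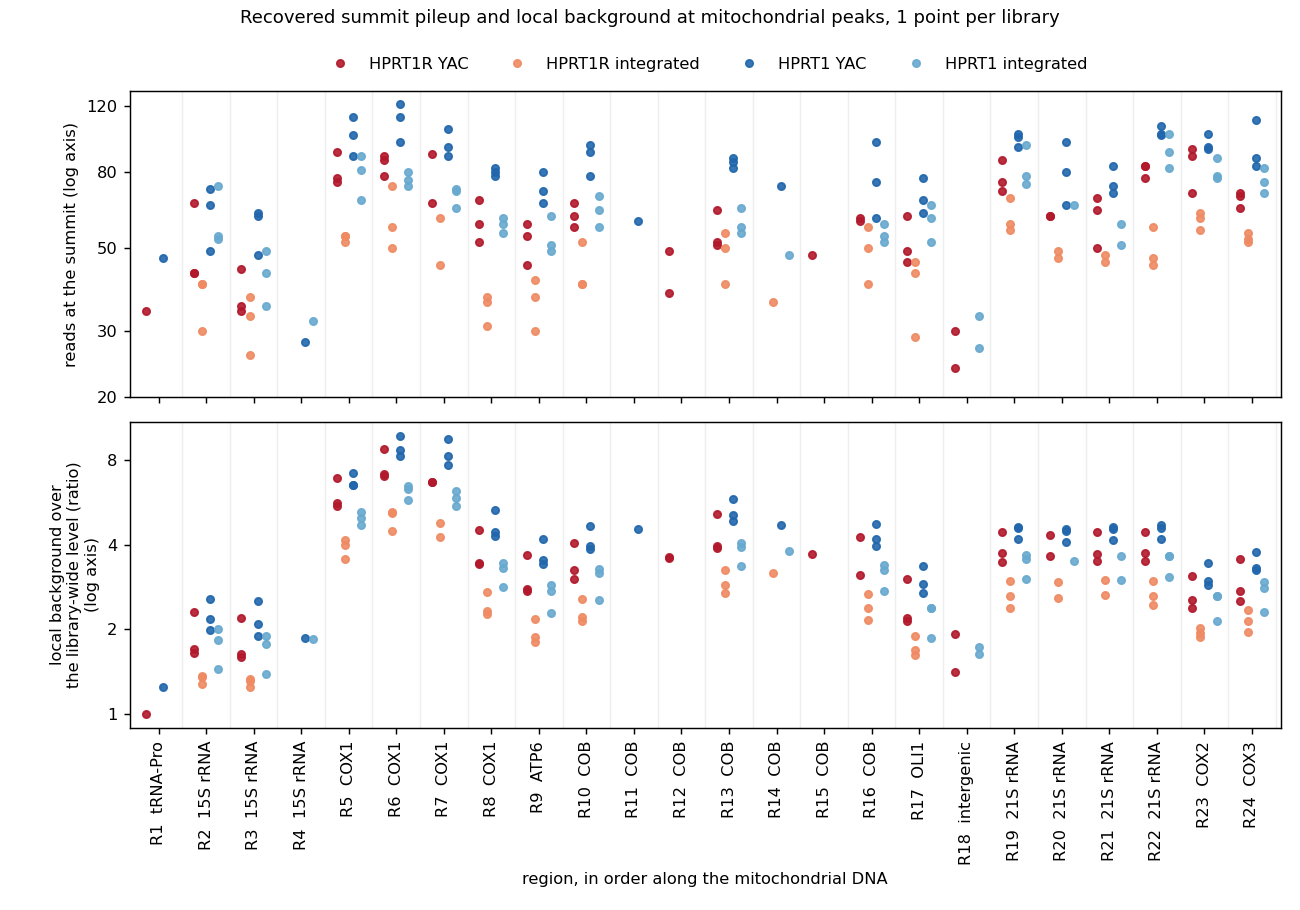
Reads at the summit (upper panel) and local background over the library-wide level (lower panel), both on log axes, at each mitochondrial region in order along the molecule, with 1 point per library and group colours. Background is highest at R6 in COX1 and low at R1 to R4 and R18. In the lower panel, at 11 of the 13 regions found in all libraries, YAC points lie above the integrated points of the same construct, in both constructs. In the upper panel the formats overlap at several of these regions.

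The formats were compared next. Mitochondrial background was higher in YAC than in integrated libraries, by group means, at each of the 13 regions found in all libraries, which lie in COX1, COX2, COX3, COB, ATP6, OLI1 and both rRNA genes. Relative to the library-wide level, the median was 3.45, 3.40 and 4.27 in HPRT1R YAC libraries, against 2.16, 2.39 and 2.72 in HPRT1R integrated libraries. It was 4.62, 4.15 and 4.45 in HPRT1 YAC libraries, against 3.25, 3.39 and 2.78 in HPRT1 integrated libraries. The formats did not overlap in either construct. The difference was log2 0.55 or 1.47-fold (p = 0.005, the smallest the test allows, and adjusted p = 0.04 over 8 comparisons, exact two-sided permutation test of format within construct, n = 6 each). It was 0.61 for HPRT1R and 0.49 for HPRT1, and each had p = 0.1 in an exact permutation test of 3 against 3, which can give no smaller value. The library-wide level itself averaged 5.85 ± 0.591 reads with a YAC and 5.72 ± 0.596 reads with an integrated construct (SD, n = 6 each), and the formats overlapped in it.

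By region, the ratio of group means of YAC to integrated background ran from 1.38 at COX2 to 1.57 at ATP6 in HPRT1R strains, and from 1.26 at COX2 to 1.46 at R8 of COX1 in HPRT1 strains. Of the 13 mitochondrial regions found in all libraries, 11 had all 3 YAC libraries above all 3 integrated ones in both constructs, by a margin of more than 1%. Over the 443 regions with a recovered background in every library the share was 2.71%, but it is largely fixed. Of the 12 called regions, 11 are these mitochondrial ones. Of 430 nuclear regions, 29 lay more than 1% above the library-wide level in all YAC libraries and so could pass. Of the nuclear regions, 1 passed. The exceptions were R2 and R3 in 15S rRNA. The opposite order held at 5.87% of the 443 regions. It could hold at 0 of the 13, as all were higher in YAC libraries by group means. The 13 regions lie on 1 molecule and share its depth, so they are not independent. More copies of mitochondrial DNA per cell and easier access of the transposase to each copy cannot be told apart in these bulk libraries. YAC libraries also had fewer nuclear peaks, 996 ± 44.9 against 1179 ± 125 in integrated libraries, and more construct peaks, 53.0 ± 2.90 against 27.7 ± 7.23 (n = 6 each). Their part in the result was not tested.

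The number and extent of mitochondrial peaks did not pass the test between formats. YAC libraries held 18, 19 and 17 peaks for HPRT1R and 18, 19 and 18 for HPRT1, and integrated libraries held 15, 17 and 17 for HPRT1R and 19, 17 and 16 for HPRT1. The ranges overlapped in both constructs. The difference was 1.33 peaks (p = 0.105, adjusted p = 0.21, exact permutation test, n = 6 each). Relative to nuclear peak density in the same library, the log2 difference was 0.35 (p = 0.01, exact permutation test). Covered share was 7.50% ± 0.541 in YAC and 6.90% ± 0.614 in integrated libraries, a difference of 0.60 points (p = 0.095, adjusted p = 0.21, exact permutation test, n = 6 each). After subtraction of the nuclear covered share it was 1.17 points (p = 0.005, exact permutation test). Both relative measures include lower nuclear values in YAC libraries. Nuclear peaks numbered 996 ± 44.9 in YAC libraries, against 1179 ± 125 in integrated libraries. Nuclear covered share was 3.07% ± 0.223 against 3.64% ± 0.442 (SD, n = 6 each). At a fold enrichment of 3 or more, the differences between formats were -0.17 peaks and -0.10 points of covered share. The percentile of the median mitochondrial peak was 37.0 ± 7.22 in YAC and 31.8 ± 11.3 in integrated libraries (p = 0.37, adjusted p = 0.493, exact permutation test, n = 6 each). That difference was 18.1 points at a -log10 q of 10 or more (p = 0.005, exact permutation test) and -9.32 points at a fold enrichment of 3 or more.

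**Figure D4:**
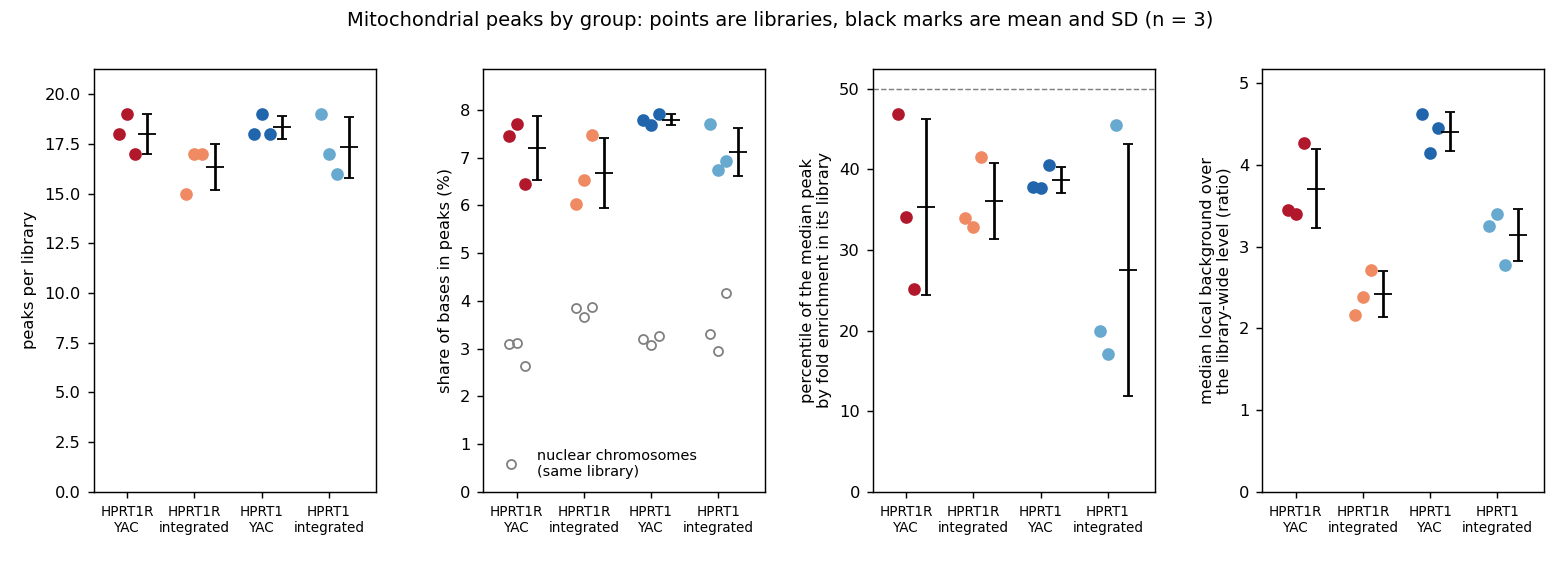
Number of mitochondrial peaks, share of mitochondrial bases in peaks, percentile of the median mitochondrial peak by fold enrichment (dashed line at 50), and median local background over the library-wide level, for 12 libraries in 4 groups. Open circles give the nuclear covered share of the same library. Background separates YAC from integrated libraries within each construct, from 3.40 upward in HPRT1R YAC against 2.72 at most in HPRT1R integrated libraries, and the other measures overlap.

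The constructs were then compared within formats. HPRT1R libraries had a lower mitochondrial background than HPRT1 libraries by log2 -0.32 or 0.804-fold (p = 0.015, adjusted p = 0.06 over 8 comparisons, exact permutation test of construct within format, n = 6 each). This did not pass after adjustment. The difference was -0.38 in integrated libraries, where the constructs did not overlap (p = 0.1, exact permutation test). On the YAC it was -0.25 (p = 0.2, same exact test), and HPRT1R replicate 3, at 4.27, lay above HPRT1 replicate 2, at 4.15. No mitochondrial region found in all libraries had HPRT1R below HPRT1 without overlap in both formats, 0 of 13 against 0% of the 443 regions. HPRT1R libraries held 17.2 ± 1.33 peaks, against 17.8 ± 1.17 in HPRT1 libraries (p = 0.465, adjusted p = 0.531, exact permutation test, n = 6 each). Covered share was 6.94% ± 0.693 in HPRT1R and 7.46% ± 0.496 in HPRT1 libraries (p = 0.145, adjusted p = 0.232, exact permutation test). At a -log10 q of 10 or more HPRT1R libraries held fewer peaks, by -4.17 (p = 0.01), and a smaller covered share, by -1.84 points (p = 0.005, exact permutation tests). The percentile was 35.7 ± 7.54 in HPRT1R and 33.1 ± 11.7 in HPRT1 libraries (p = 0.645, adjusted p = 0.645, exact permutation test).

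Presence of a peak could not be compared for single mitochondrial regions. Given the number of libraries that held each one, no region could reach a p under 0.0606 in Fisher's exact test of 6 against 6 libraries, so 0 of 24 could pass. Of 2071 regions on nuclear and mitochondrial DNA, 0 passed an adjusted p of 0.05 between formats or between constructs in that test. An unadjusted p under 0.05 was reached by 0.724% of regions between formats and by 0.241% between constructs, and nothing is read from these shares about the mitochondrial regions. R1 and R12 were called in 2 YAC and 0 integrated libraries, and R20 in 5 YAC and 3 integrated libraries. R11 and R15 were called in 1 YAC and 0 integrated libraries, and R21 in 6 and 4. Calls leaned the other way at R14, with 1 YAC and 2 integrated libraries, and at R16, with 5 and 6. R4, R7 and R18 were called equally often in both formats.

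Nuclear genes for the upkeep and transcription of mitochondrial DNA were also examined, by summits in a promoter window reaching 500 bp upstream and 100 bp downstream of each gene start. Of 16 genes on the list, 5 held a promoter peak in at least 1 library, or 31.3%, against 37.0% of 6002 nuclear genes. ILV5 and ACO1, metabolic enzymes that also bind mitochondrial nucleoids, held one in 11 libraries each, ILV5 in 6 YAC and 5 integrated and ACO1 in 5 YAC and 6 integrated libraries. MHR1, a recombination protein, held one in 2 libraries, and MIP1, the mitochondrial DNA polymerase, and RPO41, the mitochondrial RNA polymerase, in 1 each. ABF2 held none. With peaks in so few or so many libraries, 0 of the 16 genes could reach an unadjusted p under 0.05 between formats in Fisher's exact test, a level reached by 0.183% of the 6002 genes, so the formats were not compared for them.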

How the data were processed

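Per the submitters' processing notes, the authors' tools included Bowtie2 2.2.9, SAMtools 1.9 and MACS2 2.1.0, with sacCer3 as the build. Options of the peak caller, duplicate removal and handling of multi-mapping reads: not given in the sources used here. The authors deposited 1 peak list per library, with no list pooled. Deposited values per peak were its position, a score that was not used, a fold enrichment (ratio to local background), a -log10 p-value and a -log10 q-value. They are the authors' own, and fold enrichment was ranked and filtered in 1 list at a time. Fold enrichments of different libraries are set side by side as descriptions, with no test between lists. Read totals are unknown from these lists, so no counting intervals are given.

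Analysis used Python 3.11.15, NumPy 2.4.6, SciPy 1.17.1 and pandas 2.3.3. Summit pileup and background were recovered under a Poisson model, with 1 added to both in the fold and a tolerance of 0.01 on the -log10 p, for 99.9% of 13746 peaks and for all 210 mitochondrial ones. Gene positions came from the RefSeq R64 gene table. The length of the mitochondrial DNA was taken as its last gene end, 85.8 kb. Genome sequence, exons and base composition were not used here. Exact permutation and sign-flip tests ran over libraries, and Fisher's exact test over 2071 regions; they were tested on simulated data. The local-background counts by region, the fold and depth orders and 2 alternatives were chosen after seeing the data. Members and gene lists were chosen with earlier results of these data known. Regions to name had a peak in at least 6 libraries, or an unadjusted p under 0.05 in a presence test; the 7 others were added after their values were seen. Same-numbered libraries did not pair: 0 of 12 correlations of deviations over 432 nuclear regions exceeded 0.1 (-0.0895 to 0.0923). No 2 lists shared a row.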

Additional observations from a re-analysis of the deposited data

How the results depend on the processing

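Higher density, covered share and background of mitochondrial than of nuclear DNA, and the higher background in YAC than in integrated libraries, kept their direction and an exact permutation p under 0.05 under the stricter lists and without any 1 library. For background against nuclear DNA, that direction and p were fixed in advance, as given above. Without 1 library, the format difference in background was log2 0.50 to 0.60, and against nuclear DNA density was log2 1.20 to 1.27, background log2 1.69 to 1.79 and covered share 3.77 to 3.998 points. With a fold enrichment of at least 3 these were 0.43, 0.88, 1.46 and 1.92, and with a -log10 q of at least 10 they were 0.60, 2.93, 1.60 and 3.63. Within 1 construct the format difference was 0.49 (HPRT1) and 0.61 (HPRT1R), and within 1 format the construct difference was -0.25 (YAC) and -0.38 (integrated), where no p under 0.1 is possible. A fold enrichment of at least 3 turned round the difference between formats in number (-0.17 peaks), covered share (-0.10 points) and percentile (-9.32 points), that between constructs in number (0.17) and percentile (-4.29), and the width against nuclear peaks (log2 -0.0077), and left -2.45 points of percentile against nuclear peaks. A -log10 q of at least 10 brought 4 results past an unadjusted p of 0.05 that the full lists did not: log2 -0.52 for width (p = 0.000488), 18.1 points of percentile between formats (p = 0.005), and -4.17 peaks (p = 0.01) and -1.84 points of covered share (p = 0.005) between constructs, all by exact permutation tests. Regions in every library then numbered 3 of 18, against 6 of 16 at the fold limit, 8 of 29 when built from summits within 200 bp, and 13 of 24 in the main setting. The percentile difference was -0.76 between formats in HPRT1R alone and -3.30 between constructs on the YAC alone. Relative to nuclear peaks, which were fewer and covered less in YAC libraries, the format differences were log2 0.35 in density and 1.17 points in covered share. Leaving out 1 library gave 1 to 1.75 peaks and 0.44 to 0.80 points of covered share between formats. Without HPRT1 integrated replicate 1 or HPRT1R YAC replicate 3 both passed an unadjusted p of 0.05, and covered share also did without HPRT1R integrated replicate 3. Between constructs it gave -0.72 to -0.33 points of covered share, under an exact permutation p of 0.05 without HPRT1R integrated replicate 3, -0.24 to 7.13 points of percentile, negative without HPRT1R YAC replicate 1, and -1 to -0.25 peaks. Width against nuclear peaks ran from -0.013 to 0.046, negative without HPRT1R integrated replicate 1 or 3. The causes were not tested. The correlations above showed no pairing by replicate number. The replicate block changed no call (format difference in background log2 0.55, p = 0.0312, exact sign-flip permutation test over 6 pairs). Read totals are unknown, so depth limits weak peaks by an unknown amount.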
